A study of Homo sapiens with 12 samples.

Results

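The heat shock chaperones described here are HSPA1A, HSPA1B, HSPA8, HSPH1, HSPD1, HSPE1, BAG3, DNAJB1, HSP90AA1 and HSPB1, which are 10 of the 20044 genes named in the annotation of the array. Every probe annotated to 1 of these symbols was taken, 17 of 47318 probes, whatever its values. The genes themselves were chosen with earlier results of these data known. Illumina expression arrays had been run on RNA of 12 samples, 2 to each of 6 groups, all labelled SKBR-3, a line of breast cancer cells in which ERBB2 is amplified and the oestrogen receptor is not made. Cells were left untreated or given lapatinib (5 µM), Y15 (1 µM), PF04554878 (defactinib, 1 µM), or lapatinib together with 1 of the latter drugs at the same doses, for 24 hours per the design text. Y15 and PF04554878 inhibit focal adhesion kinase (FAK), and lapatinib inhibits the receptor kinases EGFR and ERBB2. No vehicle is named for the untreated cells, the extraction protocol mentions frozen tissue rather than cultured cells, and the second array of Y15 plus lapatinib carries replicate number 3. Whether replicates came from separate cultures is not stated, so the spread behind each p-value is that between these samples and may be technical.

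Heat shock proteins are chaperones that hold, refold or hand on unfolded proteins. Most of these genes are targets of HSF1, a transcription factor that is kept inactive by chaperones in unstressed cells and, on proteotoxic stress, binds heat shock elements, inverted repeats of the unit GAA, in their promoters. The HSP70 proteins work in a cycle with J-domain proteins, which bring clients, and nucleotide exchange factors, which release them, while HSP90 matures kinases and steroid receptors, ERBB2 among its best known clients in breast cancer cells.

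The labelled cell line was checked against its markers first. ESR1, the oestrogen receptor, which SKBR-3 is known to lack, was above background on 12 of 12 arrays with group means from 9.85 to 10.44 log2 units. PGR, the progesterone receptor, was above it on 12 of 12. Its group means were 10.55 with lapatinib alone and 10.06 with Y15 plus lapatinib, and 7.83 to 8.19 in the other groups. ERBB2 had group means from 8.34 to 9.35 and GRB7, its neighbour in the amplified region, from 7.21 to 8.07. Both are known to be high in SKBR-3. Each was above background on 12 of 12 arrays, but every ERBB2 group mean lay below the lowest of ESR1 (9.85). Levels of different probes are not comparable, and amplification of ERBB2 was not tested. The oestrogen and progesterone receptor levels go against the label, and those of ERBB2 and GRB7 do not show the amplification it implies. Wherever a treatment is named, the arrays labelled with it are therefore meant, and every direction rests on those labels. Arrays also fell into 3 pairs of groups, with correlations across 19922 probes averaging 0.986 to 0.987 between groups of a pair (Y15 and untreated, the Y15 combination and lapatinib, the PF04554878 combination and PF04554878), 0.988 to 0.996 between replicates and 0.897 to 0.950 between groups of different pairs. Probes are no replicates, and the correlations only describe the arrays. All 5 luminal epithelial markers were above background on every array, with a summed linear level of 21252 to 25653 on the untreated arrays, 23047 to 25755 with Y15, 24059 to 24073 with lapatinib alone, 20314 to 22362 with Y15 plus lapatinib, 34938 to 35594 with PF04554878 alone and 34411 to 35518 with PF04554878 plus lapatinib. CDH1, the E-cadherin gene and 1 of these markers, stepped with the pairs of groups. Its group means were 10.41 untreated and 10.36 with Y15, 11.58 with lapatinib alone and 11.46 with Y15 plus lapatinib. They were 12.34 with PF04554878 alone and 12.60 with PF04554878 plus lapatinib. Of 4 basal markers with a probe, KRT5 and KRT14 were above background on no array and CDH3 and ACTA2 on every array, and the 4 summed to 629 to 755 on the untreated arrays, 816 to 843 with Y15, 1176 to 1251 with lapatinib alone, 999 to 1023 with Y15 plus lapatinib, 1051 to 1123 with PF04554878 alone and 1140 to 1162 with PF04554878 plus lapatinib. Of 8 fibroblast markers, COL1A1 was above background on every array, LUM on 3 arrays and COL1A2 on 1. Of 6 endothelial markers, only ESAM was above background, on 5 arrays. Its group means were highest with lapatinib alone (7.14) and with Y15 plus lapatinib (7.25). Of 5 leukocyte markers, only CD68 was above background, on every array. The part of the sample identity, of these markers and of the pairing of the groups in the results below was not tested, and in such bulk samples fewer cells of a type and less RNA per cell cannot be told apart.

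Promoters of the members were read 250 bases before to 50 bases after each transcription start, in RefSeq windows of the GRCh38.p14 build, which held 14 windows for the 10 genes. A heat shock element was searched as 2 facing units, GAANNTTC or TTCNNGAA, which read the same on both strands, and as 3 units, GAANNTTCNNGAA or TTCNNGAANNTTC, each of which contains the shorter form. At least 1 match to 2 units lay in 8 of 14 windows, against 13.5% of all 35116 windows. By gene, 7 of the 10 had such a match, against 4417 of 27305 genes in all. Matches to 3 units lay in 3 of the 14 windows, against 0.490% of all windows. These belonged to 3 genes, HSPA8, HSPD1 and HSP90AA1, against 166 of 27305 genes in all. Windows of HSPH1, HSPE1 and BAG3 held no match, which says only that these letters are not there. The windows shown are those of HSPA1A and HSPA1B, because the values of this near-identical pair differ in direction below, of HSPA8 as a member with 2 runs of 3 units, and of the HSPD1 start with 3 overlapping matches. Matches to 2 units are in capitals, and all sequences run 5′ to 3′ on the strand of the gene.
HSPA1A, chr6:31815293-31815592, plus strand: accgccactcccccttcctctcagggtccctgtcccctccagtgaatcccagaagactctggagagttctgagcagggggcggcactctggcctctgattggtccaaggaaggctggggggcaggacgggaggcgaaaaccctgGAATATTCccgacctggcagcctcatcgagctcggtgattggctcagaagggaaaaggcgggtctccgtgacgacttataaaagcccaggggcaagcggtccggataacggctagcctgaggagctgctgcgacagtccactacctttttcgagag
HSPA1B, chr6:31827488-31827787, plus strand: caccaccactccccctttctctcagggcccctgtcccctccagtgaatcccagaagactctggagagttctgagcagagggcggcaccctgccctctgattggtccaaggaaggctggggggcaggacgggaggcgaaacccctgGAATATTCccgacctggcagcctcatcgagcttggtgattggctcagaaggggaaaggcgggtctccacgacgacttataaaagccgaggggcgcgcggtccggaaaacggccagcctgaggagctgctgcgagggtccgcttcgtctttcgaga
HSPA8, chr11:123062087-123062386, minus strand: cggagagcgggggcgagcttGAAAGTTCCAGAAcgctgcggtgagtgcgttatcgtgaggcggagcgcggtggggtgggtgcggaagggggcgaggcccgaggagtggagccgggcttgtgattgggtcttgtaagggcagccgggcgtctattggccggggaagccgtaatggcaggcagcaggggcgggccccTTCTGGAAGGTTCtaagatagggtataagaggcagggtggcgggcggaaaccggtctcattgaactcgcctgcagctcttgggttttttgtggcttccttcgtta
HSPD1, second start, chr2:197499791-197500090, minus strand: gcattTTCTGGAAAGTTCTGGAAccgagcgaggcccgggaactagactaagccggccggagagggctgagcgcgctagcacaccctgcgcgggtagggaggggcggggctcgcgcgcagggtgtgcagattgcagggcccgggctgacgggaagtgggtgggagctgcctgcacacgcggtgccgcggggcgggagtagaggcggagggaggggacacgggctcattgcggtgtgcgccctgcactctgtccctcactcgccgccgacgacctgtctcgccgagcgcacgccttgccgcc

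The HSPA1A and HSPA1B windows agreed at 277 of 299 aligned bases, 92.6%, and each held 1 match, 106 and 105 bases before the start. HSPE1 lies head to head with HSPD1, and its window shares 204 bases with the first of the 2 HSPD1 windows. The match at the HSPD1 start shown above begins 245 bases before that start. In the map of promoter windows, the matches of HSP90AA1 and DNAJB1 lie within 88 bases before a start, apart from 1 match just after the third DNAJB1 start.

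**Figure D1:**
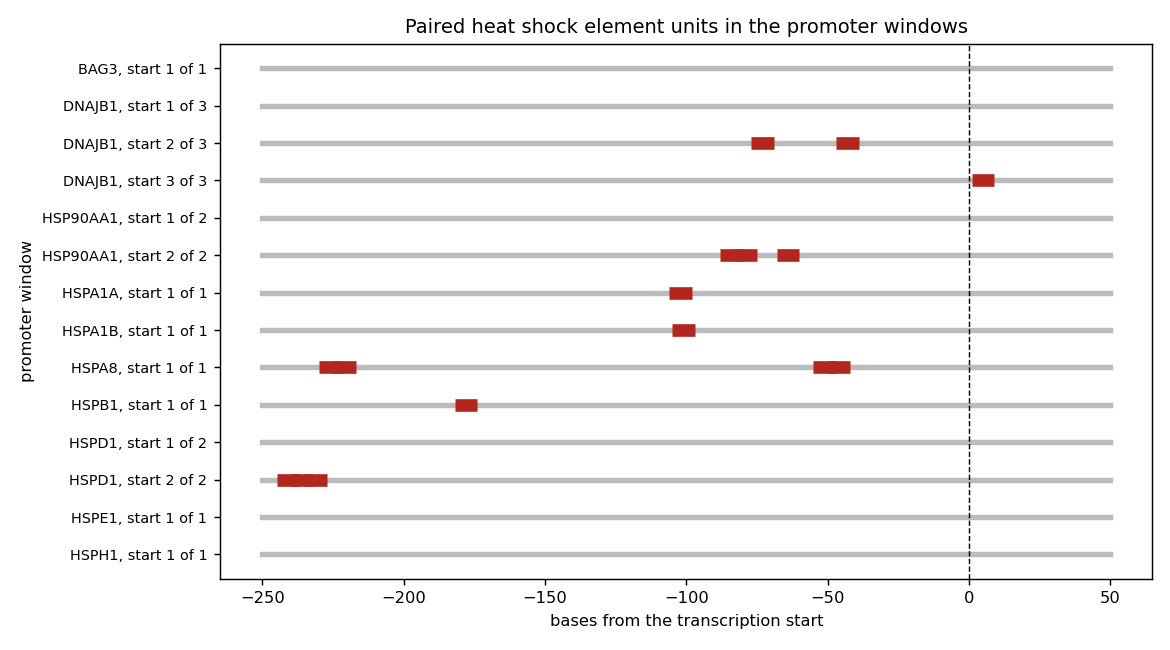
Position of each match to 2 facing heat shock element units (red) in the 14 promoter windows of the 10 genes, in bases from the annotated transcription start (dashed line). HSPA1A and HSPA1B each show a single match at nearly the same distance, 106 and 105 bases before the start, and BAG3, HSPE1 and HSPH1 show none.

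Of the 17 probes, 16 passed the filter on dim probes (above the background cutoff of 6.80 log2 units on at least 2 of 12 arrays), and 14 were above it on all 12. The probe that did not pass, ILMN_1774410 of HSPD1, lay between 6.47 and 6.71 on every array. Differences are given on the log2 scale with the standard error (SE) of the limma fit and p-values adjusted by Benjamini-Hochberg over all 19922 probes tested, and "rose" or "fell" marks an adjusted p under 0.05. Background left in deposited values compresses folds, most of all for dim probes.

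With Y15 against untreated, none of the 16 probes rose and none fell by limma, and 4 had an unadjusted p under 0.05. Of all tested probes only 3.31% passed, 1.62% higher and 1.69% lower, so a count of 0 among 16 is near that share and is no result about these genes. The members' median difference was -0.07 and that of all probes 0.00. Without untreated replicate 2, 1 probe passed, ILMN_1691097 of HSP90AA1 (-0.90, adjusted p = 0.00167), which had differed by -0.56 ± 0.17 (SE, adjusted p = 0.0879) with all arrays. The untreated arrays varied more than any other group, with a root mean square SD of 0.162 across probes against 0.0977 to 0.114 elsewhere.

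The other 4 groups differed from untreated in most members. With PF04554878, 5 of 16 probes rose and 8 fell, where 38.7% of all probes passed, 19.3% higher and 19.4% lower. With lapatinib, 3 rose and 10 fell, where 50.4% passed, 24.8% higher and 25.7% lower. With Y15 plus lapatinib, 5 rose and 9 fell, where 48.3% passed, 23.6% higher and 24.7% lower. With PF04554878 plus lapatinib, 3 rose and 8 fell, where 39.3% passed, 19.5% higher and 19.8% lower. Median differences of the members were -0.46, -0.57, -0.53 and -0.24 in the same order, beside medians of -0.01 over all probes in each. The count of 11 with PF04554878 plus lapatinib was 6 without replicate 1 of that group. Probes of 1 gene share their target, and all these comparisons share the 2 untreated arrays, so the counts are not independent. By genes, the movement split along the family: in each of the 4 groups, on at least 1 probe, HSPA1A and HSPA8 rose, while HSPA1B, HSPH1, DNAJB1 and the chaperonin genes HSPD1 and HSPE1 fell.

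**Figure D2:**
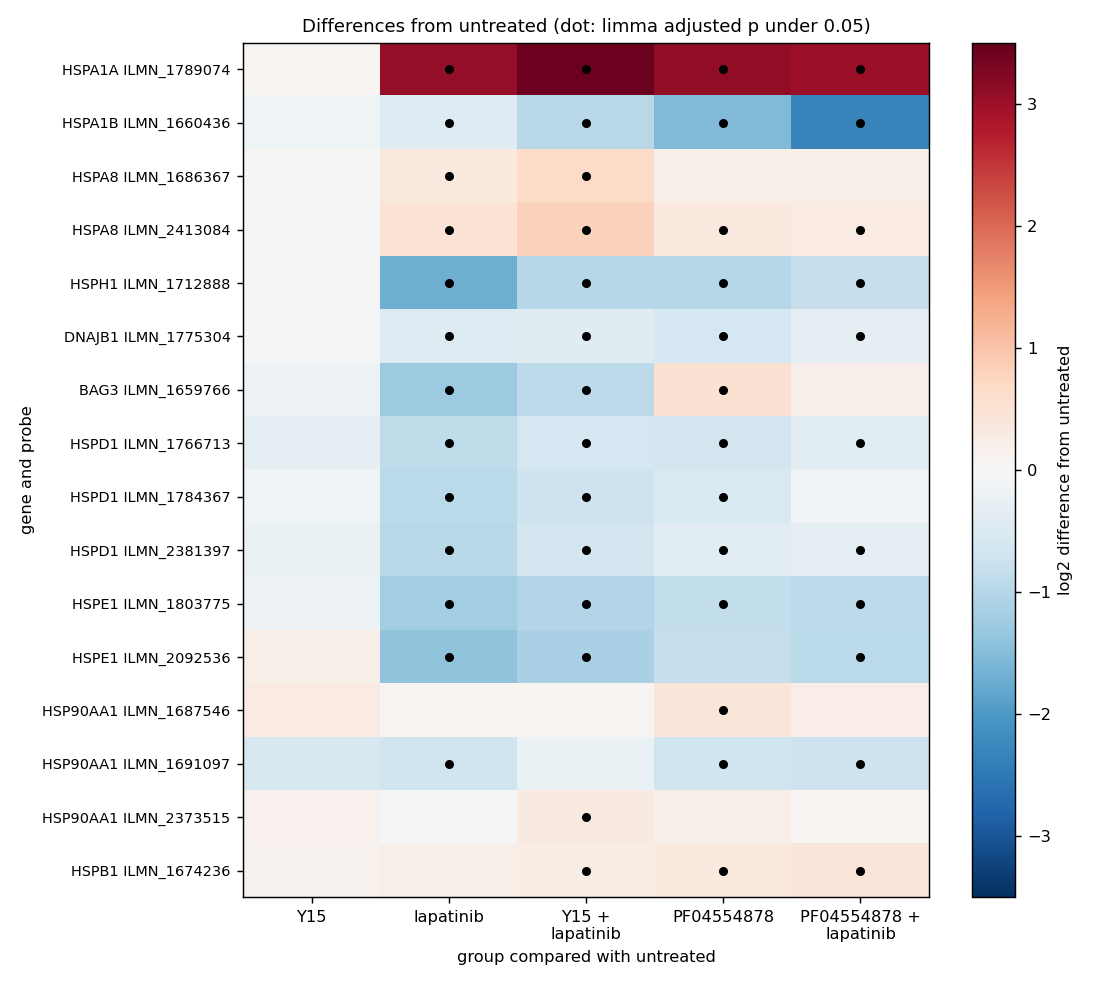
Log2 difference from the untreated arrays (colour, red higher and blue lower) for each of the 16 member probes (rows) in the 5 treated groups (columns), with a dot where the limma adjusted p was under 0.05. The Y15 column holds no dot, and the HSPA1A and HSPA1B rows have opposite colours in the other 4 columns.

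HSPA1A encodes the main stress-inducible HSP70. Its probe stood at 6.79 and 7.25 on the untreated arrays, the first of them below the background cutoff, and at 7.14 and 7.04 on those labelled Y15. It stood at 10.15 and 10.05 with lapatinib alone, 10.64 and 10.26 with Y15 plus lapatinib, 10.10 and 10.16 with PF04554878 alone, and 9.90 and 10.15 with PF04554878 plus lapatinib. The 8 arrays of the latter groups all lay above the 4 of the former, by over 2 log2 units. HSPA1A rose 8.44-fold with lapatinib (3.08 ± 0.15, adjusted p = 1.28e-10) and 8.61-fold with PF04554878 (3.11 ± 0.15, adjusted p = 3.71e-10). In the combinations it rose 10.8-fold with Y15 plus lapatinib (adjusted p = 3.56e-11) and 8.03-fold with PF04554878 plus lapatinib (adjusted p = 4.70e-10). Because 1 of the 2 untreated arrays was below the cutoff, these folds rest on a level near background. With background subtracted, a setting that widens the differences of dim probes by construction, the differences were 4.98 for lapatinib, 5.36 for its combination with Y15, 5.01 for PF04554878 and 4.90 for its combination with lapatinib, in log2 units. Against untreated, the arrays labelled Y15 differed by 0.07 (95% interval -0.24 to 0.38, adjusted p = 0.859).

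HSPA1B encodes a nearly identical protein from a neighbouring gene, and it moved the other way. It stood at 11.09 and 11.19 on the untreated arrays, 11.02 and 10.97 with Y15, 10.64 and 10.73 with lapatinib alone, 10.01 and 10.33 with Y15 plus lapatinib, 9.63 and 9.54 with PF04554878 alone, and 8.86 and 8.82 with PF04554878 plus lapatinib. No 2 groups next to each other in that order overlapped. HSPA1B fell 4.92-fold with PF04554878 plus lapatinib (-2.30 ± 0.10, adjusted p = 2.47e-10), 2.94-fold with PF04554878 (-1.56 ± 0.10, adjusted p = 1.93e-08), 1.96-fold with Y15 plus lapatinib (-0.97 ± 0.10, adjusted p = 1.60e-06) and 1.37-fold with lapatinib (-0.45 ± 0.10, adjusted p = 0.00187). The transcripts of HSPA1A and HSPA1B are near-identical and the probe sequences were not analysed here, so which of these transcripts each probe measured is uncertain. Levels of different probes are not comparable, so the opposite differences of the pair, not their levels, are what the plot of HSP70 genes shows.

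HSPA8, the constitutive HSC70, had 2 probes that agreed closely. ILMN_2413084 stood at 12.59 and 12.66 on the untreated arrays, 12.39 and 12.73 with Y15, 13.13 and 13.09 with lapatinib alone, 13.45 and 13.44 with Y15 plus lapatinib, 12.99 and 12.95 with PF04554878 alone, and 12.89 and 12.92 with PF04554878 plus lapatinib. Untreated and Y15 arrays overlapped and were lowest, and the Y15 plus lapatinib arrays were highest. It rose 1.76-fold with Y15 plus lapatinib (0.82 ± 0.10, adjusted p = 8.34e-06) and 1.40-fold with lapatinib (0.48 ± 0.10, adjusted p = 0.00106). ILMN_1686367, at 12.67 and 12.86 on the untreated arrays and 13.44 and 13.41 with Y15 plus lapatinib, rose by 0.66 ± 0.09 there (adjusted p = 2.67e-05). It rose by 0.34 ± 0.09 with lapatinib (adjusted p = 0.00638), which no longer passed when untreated replicate 1 or lapatinib replicate 2 was left out (adjusted p = 0.0549 to 0.0645). Its arrays labelled PF04554878 stood at 13.00 and 12.95 and those labelled PF04554878 plus lapatinib at 12.91 and 13.05, not past the threshold (adjusted p = 0.0932 and 0.0818), although both passed without untreated replicate 2 (adjusted p = 0.0317 and 0.0279). The rises of ILMN_2413084 there were small, 0.35 ± 0.10 with PF04554878 (adjusted p = 0.0143) and 0.28 ± 0.10 with PF04554878 plus lapatinib (adjusted p = 0.0430). The first ended without untreated replicate 1 or PF04554878 replicate 1 (adjusted p = 0.0604 to 0.0769), and the second without any 1 of the 10 arrays other than those labelled Y15 (adjusted p = 0.0531 to 0.152).

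**Figure D3:**
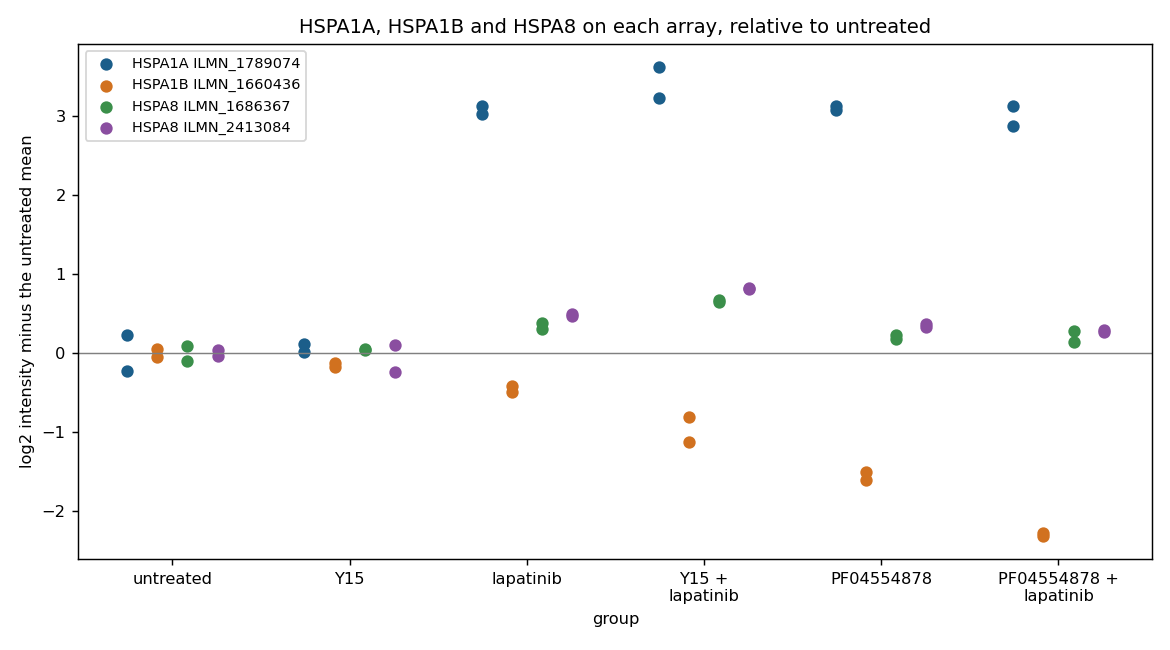
Log2 intensity of each array minus the mean of the 2 untreated arrays, for the probes of HSPA1A, HSPA1B and HSPA8, by group (each point is 1 array). HSPA1A points lie about 3 log2 units above untreated in the 4 groups with lapatinib or PF04554878, while HSPA1B points step down to a mean of -2.30 with PF04554878 plus lapatinib, and HSPA8 points stay under 1.

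The partners of HSP70 did not move alike. HSPH1, the HSP110 protein that serves as a nucleotide exchange factor, stood at 11.44 and 11.52 on the untreated arrays, 11.43 and 11.37 with Y15, 9.79 and 9.77 with lapatinib alone, 10.40 and 10.55 with Y15 plus lapatinib, 10.59 and 10.38 with PF04554878 alone, and 10.70 and 10.66 with PF04554878 plus lapatinib. The arrays labelled lapatinib were lowest, clear of all others, and those labelled Y15 plus lapatinib and PF04554878 overlapped. HSPH1 fell 3.25-fold with lapatinib (-1.70 ± 0.10, adjusted p = 9.81e-10), 2.01-fold with Y15 plus lapatinib (adjusted p = 3.82e-07), 2.00-fold with PF04554878 (adjusted p = 8.86e-07) and 1.74-fold with PF04554878 plus lapatinib (adjusted p = 8.03e-06). With Y15 it differed by -0.08 (95% interval -0.28 to 0.12).

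DNAJB1, the HSP40 J-domain protein that brings clients to HSP70, stood at 10.11 and 9.69 on the untreated arrays, 9.86 and 9.86 with Y15, 9.51 and 9.39 with lapatinib alone, 9.33 and 9.60 with Y15 plus lapatinib, 9.19 and 9.39 with PF04554878 alone, and 9.47 and 9.62 with PF04554878 plus lapatinib. Its untreated arrays lay farther apart than those of any other group and overlapped those labelled Y15. DNAJB1 fell by 0.61 ± 0.13 with PF04554878 (adjusted p = 0.00155), and by 0.40 without untreated replicate 1 (adjusted p = 0.0214). Its falls with lapatinib (-0.45 ± 0.13, adjusted p = 0.00908), with Y15 plus lapatinib (-0.44 ± 0.13, adjusted p = 0.0120) and with PF04554878 plus lapatinib (-0.35 ± 0.13, adjusted p = 0.0428) all lost the call without untreated replicate 1, where they were -0.25, -0.23 and -0.15 (adjusted p = 0.130, 0.166 and 0.411). The call also ended without lapatinib replicate 2 for the first (adjusted p = 0.0731), without Y15 plus lapatinib replicate 1 for the second (adjusted p = 0.141), and without either array labelled Y15, lapatinib or PF04554878 plus lapatinib for the third (adjusted p of at least 0.0545), which was -0.56 without untreated replicate 2.

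BAG3, an HSP70 exchange factor that links chaperones to autophagy, was the member that split by inhibitor. It stood at 9.86 and 10.06 on the untreated arrays, 9.70 and 9.84 with Y15, 8.78 and 8.59 with lapatinib alone, 9.02 and 9.03 with Y15 plus lapatinib, 10.47 and 10.50 with PF04554878 alone, and 10.18 and 10.08 with PF04554878 plus lapatinib. No neighbouring groups overlapped in the order from lapatinib, the lowest, through Y15 plus lapatinib, Y15, untreated and PF04554878 plus lapatinib to PF04554878. BAG3 fell 2.41-fold with lapatinib (-1.27 ± 0.10, adjusted p = 4.51e-08) and 1.90-fold with Y15 plus lapatinib (-0.93 ± 0.10, adjusted p = 1.52e-06). With PF04554878 it rose 1.44-fold (0.53 ± 0.10, adjusted p = 6.01e-04). With PF04554878 plus lapatinib it differed by 0.18 (95% interval -0.04 to 0.39, adjusted p = 0.186).

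HSPD1 (HSP60) and HSPE1 (HSP10) form the chaperonin that folds proteins imported into mitochondria, and both were lower in the 4 groups. HSPD1 probe ILMN_2381397 stood at 13.36 and 13.23 on the untreated arrays, 13.11 and 13.04 with Y15, 12.32 and 12.31 with lapatinib alone, 12.67 and 12.64 with Y15 plus lapatinib, 12.93 and 12.91 with PF04554878 alone, and 12.86 and 13.04 with PF04554878 plus lapatinib. All 10 treated arrays lay below both untreated ones, lowest with lapatinib. It fell 1.97-fold with lapatinib (-0.98 ± 0.09, adjusted p = 3.10e-07), 1.56-fold with Y15 plus lapatinib (adjusted p = 2.80e-05), 1.30-fold with PF04554878 (adjusted p = 0.00363) and 1.27-fold with PF04554878 plus lapatinib (-0.35 ± 0.09, adjusted p = 0.00665). The last call ended without PF04554878 plus lapatinib replicate 1 (-0.26, adjusted p = 0.0876).

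Probe ILMN_1766713 of HSPD1 stood at 12.82 and 12.73 on the untreated arrays, 12.40 and 12.45 with Y15, 11.85 and 11.90 with lapatinib alone, 11.96 and 12.34 with Y15 plus lapatinib, 12.29 and 12.01 with PF04554878 alone, and 12.25 and 12.56 with PF04554878 plus lapatinib. Untreated arrays were again above all others. It fell by 0.90 ± 0.13 with lapatinib (adjusted p = 3.49e-05), by 0.63 ± 0.13 with PF04554878 (adjusted p = 0.00133) and by 0.62 ± 0.13 with Y15 plus lapatinib (adjusted p = 0.00105). Its fall with PF04554878 plus lapatinib (-0.38 ± 0.13, adjusted p = 0.0336) was -0.22 without replicate 1 of that group (adjusted p = 0.309), and the call also ended without untreated replicate 1 (adjusted p = 0.115). ILMN_1784367, the dimmest HSPD1 probe that passed the filter, stood at 8.78 and 8.64 untreated, 8.43 and 8.67 with Y15, 7.77 and 7.75 with lapatinib alone, 7.93 and 8.06 with Y15 plus lapatinib, 8.27 and 8.07 with PF04554878 alone, and 8.58 and 8.58 with PF04554878 plus lapatinib. The order of groups began with lapatinib as before. It fell by 0.95 ± 0.11 with lapatinib (adjusted p = 2.00e-06), by 0.71 ± 0.11 with Y15 plus lapatinib and by 0.54 ± 0.11 with PF04554878, and differed by -0.13 with PF04554878 plus lapatinib (adjusted p = 0.370).

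HSPE1 probe ILMN_1803775 stood at 12.04 and 12.23 on the untreated arrays, 11.97 and 11.92 with Y15, 10.76 and 11.08 with lapatinib alone, 11.01 and 11.21 with Y15 plus lapatinib, 11.35 and 11.22 with PF04554878 alone, and 11.36 and 11.07 with PF04554878 plus lapatinib. The 4 groups with lapatinib or PF04554878 overlapped with their neighbours in order, and all lay below untreated and Y15. HSPE1 fell 2.32-fold with lapatinib (-1.22 ± 0.13, adjusted p = 8.94e-07), 2.04-fold with Y15 plus lapatinib (adjusted p = 5.85e-06), 1.90-fold with PF04554878 plus lapatinib (adjusted p = 2.66e-05) and 1.80-fold with PF04554878 (adjusted p = 6.31e-05). Its other probe, ILMN_2092536, was noisier, at 10.40 and 10.21 untreated, 10.58 and 10.44 with Y15, 8.97 and 8.82 with lapatinib alone, 9.77 and 8.59 with Y15 plus lapatinib, 10.02 and 8.99 with PF04554878 alone, and 9.18 and 9.54 with PF04554878 plus lapatinib. Replicates of Y15 plus lapatinib and of PF04554878 lay over 1 log2 unit apart. The probe fell by 1.41 ± 0.31 with lapatinib (adjusted p = 0.00118). Its fall with Y15 plus lapatinib (-1.13 ± 0.31, adjusted p = 0.00659) was -0.54 without replicate 3 of that group (adjusted p = 0.148) and -1.71 without replicate 1, and its fall with PF04554878 plus lapatinib (-0.95 ± 0.31, adjusted p = 0.0219) ended without untreated replicate 1 or PF04554878 plus lapatinib replicate 1 (adjusted p = 0.0761 to 0.160). With PF04554878 it did not pass (-0.80 ± 0.31, adjusted p = 0.0504), and passed without PF04554878 replicate 1 or either array of Y15 plus lapatinib (adjusted p = 0.00451 to 0.0123).

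HSP90AA1, the inducible cytosolic HSP90, gave different pictures on its 3 probes. ILMN_2373515 stood at 13.13 and 13.20 on the untreated arrays, 13.30 and 13.35 with Y15, 12.96 and 13.20 with lapatinib alone, 13.53 and 13.45 with Y15 plus lapatinib, 13.40 and 13.34 with PF04554878 alone, and 13.26 and 13.26 with PF04554878 plus lapatinib. Only the Y15 plus lapatinib arrays, the highest, passed against untreated (0.33 ± 0.09, adjusted p = 0.00978), a call that ended without replicate 1 of that group (adjusted p = 0.0700). ILMN_1691097 stood at 13.42 and 12.74 on the untreated arrays, which lay far apart, 12.40 and 12.64 with Y15, 12.22 and 12.56 with lapatinib alone, 12.77 and 12.91 with Y15 plus lapatinib, 12.40 and 12.36 with PF04554878 alone, and 12.24 and 12.46 with PF04554878 plus lapatinib. It fell with lapatinib (-0.69 ± 0.17, adjusted p = 0.00337), PF04554878 (-0.71 ± 0.17, adjusted p = 0.00413) and PF04554878 plus lapatinib (-0.73 ± 0.17, adjusted p = 0.00314). Without untreated replicate 1 these were -0.35, -0.37 and -0.39 (adjusted p = 0.0547, 0.0590 and 0.0438), and the lapatinib call also ended without lapatinib replicate 1 (adjusted p = 0.0601). With Y15 plus lapatinib this probe differed by -0.24 (adjusted p = 0.268), and by -0.58 without untreated replicate 2 (adjusted p = 0.00365).

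The dim HSP90AA1 probe, ILMN_1687546, stood between 6.76 and 7.38 on all arrays, near the background cutoff, and rose with PF04554878 (0.44 ± 0.10, adjusted p = 0.00331, or 1.47 with background subtracted), opposite to ILMN_1691097. With PF04554878 plus lapatinib it differed by 0.23 (adjusted p = 0.0958), and by 0.36 without untreated replicate 1 (adjusted p = 0.0187). HSPB1 (HSP27), a small heat shock protein that holds unfolded clients, stood at 13.20 and 12.93 on the untreated arrays, 13.23 and 13.16 with Y15, 13.26 and 13.30 with lapatinib alone, 13.33 and 13.33 with Y15 plus lapatinib, 13.47 and 13.33 with PF04554878 alone, and 13.42 and 13.53 with PF04554878 plus lapatinib. These levels are near the top of the scale, and the group means spanned only 13.06 to 13.47. HSPB1 rose by 0.41 ± 0.10 with PF04554878 plus lapatinib (adjusted p = 0.00406), 0.33 ± 0.10 with PF04554878 (adjusted p = 0.0150) and 0.27 ± 0.10 with Y15 plus lapatinib (adjusted p = 0.0377). Without untreated replicate 2, the lower of the pair, these became 0.28, 0.20 and 0.13 and none passed (adjusted p = 0.0523, 0.161 and 0.330). The PF04554878 call also ended without its replicate 1 (adjusted p = 0.127), and that of Y15 plus lapatinib without any 1 of the 4 arrays labelled lapatinib or Y15 plus lapatinib (adjusted p of at least 0.0501), with a difference of 0.40 without untreated replicate 1. With lapatinib HSPB1 differed by 0.21 (adjusted p = 0.0894), and passed without untreated replicate 1 (0.35, adjusted p = 0.0120).

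**Figure D4:**
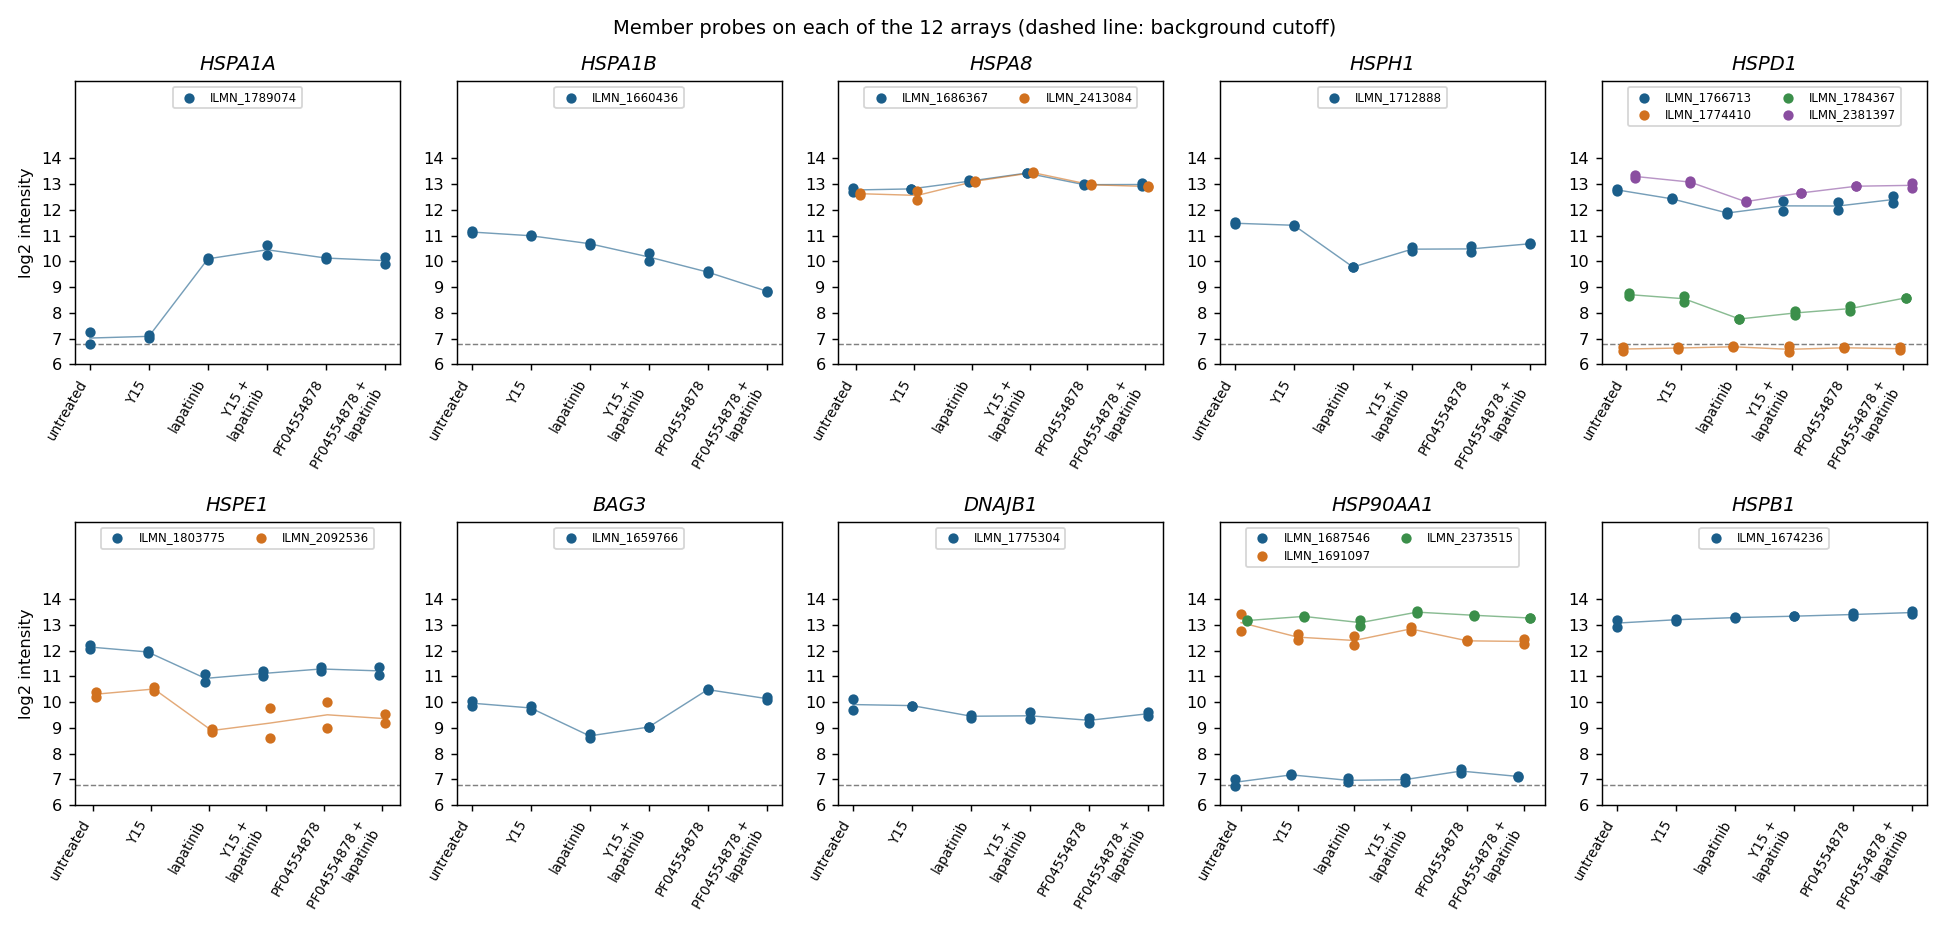
Log2 intensity of each member probe on each of the 12 arrays, by group and gene (each point is 1 array, lines join group means, dashed line the background cutoff at 6.80 log2 units). HSPA1A climbs from near the cutoff to about 10 in the 4 groups with lapatinib or PF04554878, HSPA1B and HSPH1 sit lower there than on the untreated arrays, and HSPB1 stays between 12.93 and 13.53.

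What a FAK inhibitor added to lapatinib was read against the arrays labelled lapatinib. With Y15 plus lapatinib against lapatinib, 5 of 16 probes rose and 1 fell, where 9.26% of all probes passed, 4.67% higher and 4.59% lower, with a member median of 0.30 beside 0.00 for all probes. HSPH1 rose 1.62-fold, from 9.79 and 9.77 to 10.40 and 10.55 (0.69 ± 0.10, adjusted p = 7.50e-04), and its arrays did not overlap. HSPA1B fell by 0.51 ± 0.10 (adjusted p = 0.00714), a call that ended without either array labelled lapatinib or Y15 plus lapatinib replicate 1 (adjusted p = 0.0511 to 0.102). HSP90AA1 rose on ILMN_2373515 (0.41 ± 0.09, adjusted p = 0.0147), not without lapatinib replicate 1 or Y15 plus lapatinib replicate 1 (adjusted p = 0.115 to 0.211), and HSPD1 on ILMN_2381397 (0.34 ± 0.09, adjusted p = 0.0316), not without any 1 of the 4 arrays compared (adjusted p = 0.105 to 0.165). BAG3 (0.34 ± 0.10, adjusted p = 0.0435) and HSPA8 on ILMN_1686367 (0.32 ± 0.09, adjusted p = 0.0447) lay close to the threshold and lost the call without any 1 of the 10 arrays other than the untreated (adjusted p = 0.0545 to 0.288 and 0.0514 to 0.281). The other HSPA8 probe differed by 0.34 ± 0.10 without passing (adjusted p = 0.0545), and passed without any 1 of the untreated or Y15 arrays (adjusted p = 0.0304 to 0.0365). ILMN_1691097 of HSP90AA1 differed by 0.45 (adjusted p = 0.122), and passed without either untreated array (adjusted p = 0.0190). HSPA1A differed by 0.35 (95% interval 0.04 to 0.66, adjusted p = 0.155). The count of 6 moved to between 1 and 3 when 1 of the 4 arrays compared was left out.

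With PF04554878 plus lapatinib against lapatinib, 5 probes of 3 genes rose and 1 fell, where 51.3% of all probes passed, 25.3% higher and 26.0% lower, and the member median was 0.19. BAG3 rose 2.73-fold, from 8.78 and 8.59 to 10.18 and 10.08 (1.45 ± 0.10, adjusted p = 9.61e-09). HSPH1 rose 1.87-fold (0.90 ± 0.10, adjusted p = 1.10e-06), and HSPD1 rose on all 3 probes that passed the filter, by 0.82 ± 0.11 on ILMN_1784367 (adjusted p = 8.60e-06, or 1.23 with background subtracted), 0.63 ± 0.09 on ILMN_2381397 (adjusted p = 2.86e-05) and 0.52 ± 0.13 on ILMN_1766713 (adjusted p = 0.00353). The last of these ended without PF04554878 plus lapatinib replicate 2 (0.37, adjusted p = 0.0673). HSPA1B fell 3.59-fold, from 10.64 and 10.73 to 8.86 and 8.82 (-1.84 ± 0.10, adjusted p = 9.62e-10). HSPA1A differed by -0.07 (95% interval -0.38 to 0.24, adjusted p = 0.721). HSPE1 on ILMN_1803775 (0.29, adjusted p = 0.0637) passed without either untreated array, lapatinib replicate 2 or PF04554878 plus lapatinib replicate 2 (adjusted p = 0.0202 to 0.0469), and HSP90AA1 on ILMN_2373515 (0.18, adjusted p = 0.130) without lapatinib replicate 2 (adjusted p = 0.0389).

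What lapatinib added to a FAK inhibitor was read against the arrays labelled with that inhibitor. With Y15 plus lapatinib against Y15, 3 probes rose and 8 fell, where 48.1% of all probes passed, 23.6% higher and 24.5% lower. The member median was -0.33, beside -0.01 for all probes. HSPA1A rose 10.3-fold (3.36 ± 0.15, adjusted p = 4.61e-11) and HSPA8 rose by 0.89 ± 0.10 on ILMN_2413084 and 0.61 ± 0.09 on ILMN_1686367 (adjusted p = 3.79e-06 and 5.41e-05). HSPH1 (-0.93 ± 0.10), HSPA1B (-0.82 ± 0.10), BAG3 (-0.74 ± 0.10) and HSPE1 on ILMN_1803775 (-0.84 ± 0.13) fell, with adjusted p of 9.65e-07, 9.12e-06, 1.65e-05 and 4.87e-05. HSPE1 on ILMN_2092536 fell by 1.32 ± 0.31 (adjusted p = 0.00209), or by 0.74 without Y15 plus lapatinib replicate 3. HSPD1 fell on ILMN_1784367 (-0.55 ± 0.11, adjusted p = 4.26e-04) and ILMN_2381397 (-0.42 ± 0.09, adjusted p = 0.00125). DNAJB1 fell by 0.40 ± 0.13 (adjusted p = 0.0209), a call that ended without either Y15 array or Y15 plus lapatinib replicate 1 (adjusted p = 0.0770 to 0.205), and was -0.26 without the latter. HSP90AA1 on ILMN_1691097 (0.32, adjusted p = 0.144) passed without either untreated array (adjusted p = 0.0335), and HSPD1 on ILMN_1766713 (-0.27, adjusted p = 0.103) without Y15 plus lapatinib replicate 3 (-0.46, adjusted p = 0.0188).

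With PF04554878 plus lapatinib against PF04554878, 1 of 16 probes rose and 2 fell, where 6.43% of all probes passed, 3.04% higher and 3.39% lower. HSPA1B fell 1.67-fold, from 9.63 and 9.54 to 8.86 and 8.82 (-0.74 ± 0.10, adjusted p = 4.42e-04). HSPD1 rose on ILMN_1784367 only (0.41 ± 0.11, adjusted p = 0.0280), not without PF04554878 replicate 2 or either array of the combination (adjusted p = 0.126 to 0.230), and its other 2 probes differed by 0.25 and 0.03. BAG3 fell by 0.35 ± 0.10 at the edge of the threshold (adjusted p = 0.0498) and lost the call without any 1 of the 10 arrays other than the untreated (adjusted p = 0.0574 to 0.289). The count of 3 was 1 without PF04554878 replicate 2 or either array of the combination. HSPA1A differed by -0.10 (95% interval -0.41 to 0.21) and HSPH1 by 0.20 (adjusted p = 0.276).

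**Figure D5:**
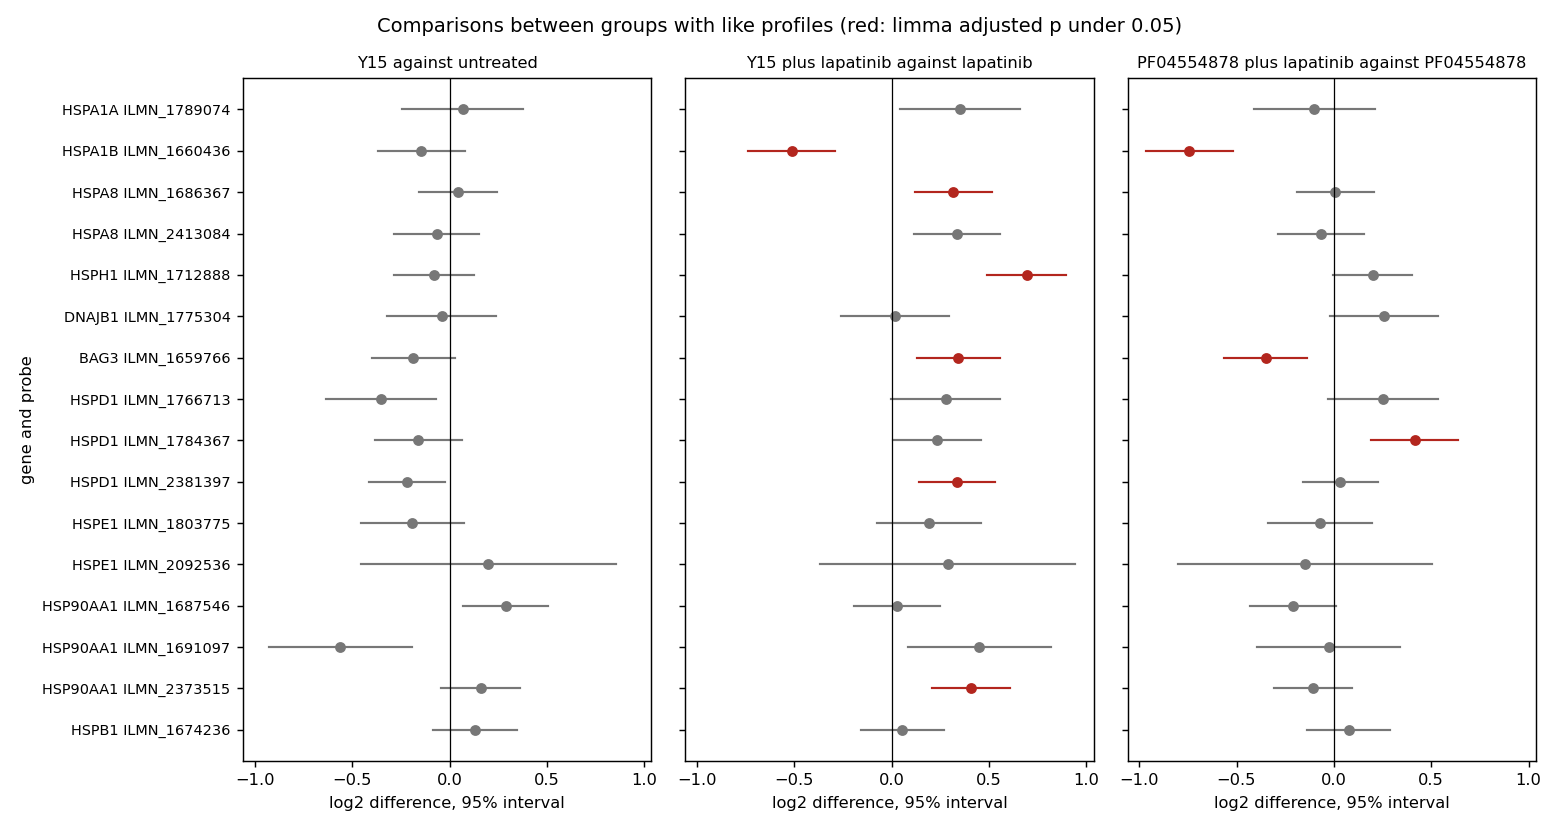
Log2 difference with its 95% interval for the 16 member probes (rows) in the comparisons within the 3 pairs of alike groups: Y15 against untreated, Y15 plus lapatinib against lapatinib, and PF04554878 plus lapatinib against PF04554878 (red where the limma adjusted p was under 0.05). No probe is red in the first panel, 6 are in the second and 3 in the third, and HSPA1B is the probe in red on the left of 0 in both of the last panels.

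The FAK inhibitors were compared with each other at matched dose and time, in 2 comparisons. With PF04554878 against Y15, 3 probes rose and 6 fell, where 40.9% of all probes passed, 20.7% higher and 20.2% lower. HSPA1A was 8.22-fold higher (3.04 ± 0.15, adjusted p = 4.30e-10, or 4.60 with background subtracted) and BAG3 1.64-fold higher (0.71 ± 0.10, adjusted p = 3.72e-05). HSPA1B was 2.66-fold lower (-1.41 ± 0.10, adjusted p = 5.45e-08), HSPH1 1.89-fold lower (adjusted p = 1.91e-06), HSPE1 1.58-fold lower on ILMN_1803775 (adjusted p = 5.56e-04) and DNAJB1 1.49-fold lower (adjusted p = 0.00251). HSPA8 was higher on ILMN_2413084 (0.41 ± 0.10, adjusted p = 0.00458), but by 0.24 without Y15 replicate 1 (adjusted p = 0.0986). Calls were also lost for HSPD1 on ILMN_1784367 (-0.38 ± 0.11, adjusted p = 0.00864), without replicate 2 of either group (adjusted p = 0.104 to 0.123), and for HSPE1 on ILMN_2092536 (2.00-fold lower, adjusted p = 0.0161), without either Y15 array or PF04554878 replicate 2 (adjusted p = 0.0539 to 0.254). The latter was -0.49 without PF04554878 replicate 2 and -1.51 without replicate 1. HSPB1 differed by 0.20 (95% interval -0.01 to 0.42) and HSP90AA1 on ILMN_2373515 by 0.04 (95% interval -0.16 to 0.25).

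In the presence of lapatinib, PF04554878 plus lapatinib against Y15 plus lapatinib, 3 probes rose and 5 fell, where 48.1% of all probes passed, 24.0% higher and 24.1% lower. BAG3 was 2.15-fold higher (1.10 ± 0.10, adjusted p = 2.18e-07) and HSPD1 1.50-fold higher on ILMN_1784367 (adjusted p = 2.44e-04). HSPA1B was 2.51-fold lower (-1.33 ± 0.10, adjusted p = 4.36e-08), and HSPA8 was lower by 0.54 ± 0.10 and 0.44 ± 0.09 on ILMN_2413084 and ILMN_1686367 (adjusted p = 4.43e-04 and 9.58e-04). HSPA1A was lower by 0.42 ± 0.15 (adjusted p = 0.0256), or by 0.23 without Y15 plus lapatinib replicate 1 (adjusted p = 0.293), and its call also ended without PF04554878 plus lapatinib replicate 1 (adjusted p = 0.210) and with background subtracted (-0.46, adjusted p = 0.461). HSPD1 on ILMN_2381397 (0.30 ± 0.09, adjusted p = 0.0141) lost its call without Y15 plus lapatinib replicate 3 or PF04554878 plus lapatinib replicate 2 (adjusted p = 0.0700 to 0.150), and HSP90AA1 on ILMN_1691097 (-0.49 ± 0.17, adjusted p = 0.0288) without either array of Y15 plus lapatinib or PF04554878 plus lapatinib replicate 1 (adjusted p = 0.0551 to 0.192). HSPH1 differed by 0.21 (95% interval 0.01 to 0.41, adjusted p = 0.0828) and DNAJB1 by 0.08 (95% interval -0.20 to 0.36). Without Y15 plus lapatinib replicate 3, HSPD1 on ILMN_1766713 passed (0.25 with all arrays, 0.44 without, adjusted p = 0.0246), and without replicate 1 HSPE1 on ILMN_2092536 (0.17 and 0.76, adjusted p = 0.0422). HSP90AA1 on ILMN_2373515 (-0.23, adjusted p = 0.0588) passed without any 1 of the untreated or lapatinib arrays (adjusted p = 0.0476 to 0.0495).

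Whether a combination equalled the sum of its single treatments was tested as an interaction, the combination minus each single treatment plus untreated. For Y15 and lapatinib, 3 of 16 probes passed, all above the sum, where 2.63% of all probes passed, 1.13% above and 1.50% below. HSPH1 lay 0.77 ± 0.13 above (adjusted p = 0.0125), a call that ended without either Y15 array, lapatinib replicate 1 or Y15 plus lapatinib replicate 3 (adjusted p = 0.0503 to 0.0751). HSPD1 on ILMN_2381397 lay 0.56 ± 0.13 above (adjusted p = 0.0370) and HSP90AA1 on ILMN_1691097 1.01 ± 0.24 (adjusted p = 0.0420). Leaving out any 1 of the 6 arrays labelled Y15, lapatinib or Y15 plus lapatinib ended both calls (adjusted p = 0.0823 to 0.148 for HSPD1, and 0.0561 to 0.212 for HSP90AA1, which also lost its call without either array of PF04554878 plus lapatinib). HSP90AA1 lay 0.67 above without untreated replicate 1. The count of 3 was 0 or 1 without any 1 of those 6 arrays. BAG3 lay 0.53 above (adjusted p = 0.0593), and passed without untreated replicate 1 (0.63, adjusted p = 0.0184).

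For PF04554878 and lapatinib, 9 of 16 probes lay above the sum and 2 below, where 39.3% of all probes passed, 19.6% above and 19.6% below, and the member median was 0.69 beside 0.01 for all probes. This interaction is also the combination minus PF04554878, less the difference of lapatinib from untreated. The combination and PF04554878 arrays were alike (mean correlation 0.987), so the values below mostly repeat the lapatinib difference with its sign reversed. They are not separate evidence beside that comparison. HSPA1A lay below, at -3.18 ± 0.21 (adjusted p = 1.21e-08, or -5.09 with background subtracted). Against untreated, it differed by 3.08 on the arrays labelled lapatinib, 3.11 on those labelled PF04554878 and 3.01 on those of the combination. HSPH1 lay 1.90 ± 0.13 above (adjusted p = 3.47e-08), where it had fallen 2.00-fold with PF04554878, 3.25-fold with lapatinib and 1.74-fold with both. All 3 HSPD1 probes (1.36 ± 0.15, 1.15 ± 0.19 and 1.01 ± 0.13) and HSPE1 on ILMN_1803775 (1.14 ± 0.18) lay above, with adjusted p from 3.31e-06 to 1.52e-04. BAG3 lay 0.92 ± 0.14 above (adjusted p = 9.24e-05), DNAJB1 0.71 ± 0.19 above (adjusted p = 0.00630), and HSPA8 on ILMN_2413084 0.55 ± 0.15 below (adjusted p = 0.00710). HSPE1 on ILMN_2092536 (1.26 ± 0.43, adjusted p = 0.0302) was 0.75 without PF04554878 replicate 2, and lost its call there and without untreated replicate 1, either lapatinib array or PF04554878 plus lapatinib replicate 2 (adjusted p = 0.0567 to 0.169). HSP90AA1 on ILMN_1691097 (0.67 ± 0.24, adjusted p = 0.0411) ran from 0.33 without untreated replicate 1 to 1.00 without replicate 2, and lost its call without untreated replicate 1, lapatinib replicate 1, either PF04554878 array or PF04554878 plus lapatinib replicate 2 (adjusted p = 0.0733 to 0.183). HSPA1B lay -0.29 ± 0.15 from the sum and did not pass (adjusted p = 0.140), so its departure from the sum was not past the threshold. HSPA8 on ILMN_1686367 (-0.33, adjusted p = 0.0569) passed without untreated replicate 2 or PF04554878 plus lapatinib replicate 2 (adjusted p = 0.0186 to 0.0488), and HSP90AA1 on ILMN_1687546 (-0.28, adjusted p = 0.141) without untreated replicate 1 (-0.41, adjusted p = 0.0303).

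HSPA1A had the widest range of group means of the member probes, and the genes most like it were sought among all that passed the filter, by the root mean square difference of the 6 group means, each centred. The 5 nearest were MDK, a heparin-binding growth factor (0.213 log2 units), UBB, a polyubiquitin gene (0.229), BTBD6 (0.358), CD44, a hyaluronan receptor (0.382), and AGR2, an ER protein disulfide isomerase relative (0.536). MDK stood at 6.68 on the untreated arrays, 6.83 with Y15, 10.22 with lapatinib alone, 10.06 with Y15 plus lapatinib, 9.80 with PF04554878 alone and 10.14 with PF04554878 plus lapatinib, as group means. No other member came as near: HSPA8 on ILMN_2413084 was next at 1.23, and HSPA1B was farthest at 2.12. The means were not scaled, so a probe with smaller differences lies far from HSPA1A whatever its pattern. Group means spanned 3.43 for HSPA1A and 0.89 for HSPA8 on ILMN_2413084. The means of MDK on the untreated arrays, and of CD44 on the untreated arrays (6.48) and with Y15 (6.42), lay under the background cutoff, so these genes passed the filter through the groups where they are high, and their distances rest partly on values at background. With 6 group means from 12 arrays that fall into 3 pairs, likeness describes these arrays only.

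Other chaperones and heat shock genes were read by lists, 1 probe a gene, and are to be read beside the shares of all probes that passed against untreated, which were 38.7% for PF04554878, 39.3% for its combination, 50.4% for lapatinib and 48.3% for the Y15 combination. The counts of the lists below are given as descriptions, and none is shown to differ from those shares. Of 20 further HSF1-responsive chaperone genes that passed the filter, 1 rose with Y15 and none fell, 7 rose and 4 fell with lapatinib alone, 5 and 4 with Y15 plus lapatinib, 4 and 6 with PF04554878 alone, and 4 and 4 with PF04554878 plus lapatinib, all against untreated, with list medians from -0.09 to -0.02 beside -0.01 to 0.00 for all probes. UBB, which supplies ubiquitin under stress, rose 15.1-fold with PF04554878 (3.92 ± 0.17, adjusted p = 1.62e-10) and 14.1-fold with lapatinib (3.82 ± 0.17, adjusted p = 6.62e-11). CHORDC1, an HSP90 cochaperone, rose 3.25-fold with lapatinib (1.70 ± 0.10, adjusted p = 2.79e-09) and 3.71-fold with Y15 plus lapatinib. HSPB8, the small heat shock protein that works with BAG3, fell 2.47-fold with PF04554878, 2.33-fold with lapatinib and 5.06-fold with PF04554878 plus lapatinib (-2.34 ± 0.17, adjusted p = 4.63e-08). HSP90AB1, the constitutive HSP90, fell by 0.98 ± 0.10 with PF04554878 and 0.79 ± 0.10 with lapatinib (adjusted p = 1.59e-06 and 7.35e-06). IER5, an activator of HSF1, was the gene that rose with Y15 (0.65 ± 0.10, adjusted p = 0.00369).

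HSF1 itself, on a probe with group means from 7.17 to 7.92, fell against untreated with PF04554878 plus lapatinib (-0.36 ± 0.13, adjusted p = 0.0326). Of 5 heat shock factors and HSF1 partners that passed the filter, the deacetylase SIRT1 and the acetyltransferase EP300 rose with PF04554878 (0.59 ± 0.09 and 0.58 ± 0.10, adjusted p = 8.86e-05 and 1.73e-04), and none rose or fell with Y15 or with lapatinib alone. In the combinations, 3 rose and 1 fell with PF04554878 plus lapatinib, where 39.3% of all probes passed. With Y15 plus lapatinib 2 rose and 0 fell, where 48.3% passed. SIRT1 rose in both combinations (0.59 ± 0.09 and 0.29 ± 0.09). Of the 8 subunits of TRiC/CCT, the cytosolic chaperonin, CCT6A rose in each of the 4 groups, most with Y15 plus lapatinib (1.38 ± 0.18), while CCT3 fell in each (-0.94 to -0.79). Between 2 and 4 subunits fell in those groups and 1 or 2 rose, with list medians from -0.29 to -0.02 beside -0.01 for all probes. Of 6 prefoldin subunits, which hand unfolded actin and tubulin to TRiC, 3 rose and 2 fell with lapatinib, among them PFDN6 (1.43 ± 0.15, adjusted p = 7.58e-07) and PFDN4 (-1.40 ± 0.09, adjusted p = 3.74e-09), where 50.4% of all probes passed, and none rose and 3 fell with PF04554878, where 38.7% did.

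Of 11 mitochondrial chaperones and proteases other than HSPD1 and HSPE1 that passed the filter, 2 rose and 5 fell with lapatinib alone, 1 and 4 with Y15 plus lapatinib, 1 and 6 with PF04554878 alone, and 3 and 3 with PF04554878 plus lapatinib, beside shares of all probes of 50.4%, 48.3%, 38.7% and 39.3%. LONP1, the matrix protease, rose with lapatinib (0.73 ± 0.13, adjusted p = 1.92e-04) and fell with PF04554878 (-0.60 ± 0.13, adjusted p = 0.00152), while AFG3L2, an inner membrane protease, fell in both (-0.95 ± 0.10 and -0.41 ± 0.10). Of 13 chaperones of the endoplasmic reticulum, 3 rose and 4 fell with lapatinib, where 50.4% of all probes passed, among them SDF2L1 (0.80 ± 0.14) and PDIA6 (-1.15 ± 0.12, adjusted p = 1.30e-06), and 4 rose and 5 fell with PF04554878, among them SDF2L1 (0.45 ± 0.14) and CANX (-0.98 ± 0.09, adjusted p = 9.71e-07). These list members were not refitted under other settings.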

How the data were processed

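The authors deposited 1 table of log2 intensities for 12 arrays and 47318 probes. Per the submitters' processing notes, GenomeStudio was used, with no version stated. How background was treated and how arrays were normalized is not given in the sources used here. Deposited values ran from 6.20 to 13.90 log2 units, and the sorted arrays differed by at most 0.0146, so their distributions are nearly identical. A second table has 24 columns, 12 of signal, whose names match no label, and it was not used.

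The platform annotation gave 1 gene symbol to 30111 probes, several to 8 and none to 17199. Background was taken as the mode of all values, 6.55, with an SD of 0.0827 from the values below it, and the cutoff as the mode plus 3 SD, 6.80. Probes above it on at least 2 arrays were kept, 19922 in all, each as its own feature. The 13 comparisons, including 2 interactions (combination minus each single treatment plus untreated), were fitted together across the 6 groups by lmFit and eBayes of limma 3.58.1 under R 4.3.3 (6 residual and 9.08 prior degrees of freedom), with Benjamini-Hochberg adjustment over all kept probes and a threshold of 0.05. The fit was tested on simulated data. The number of arrays, 2 a group, limits the precision.

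The members and gene lists were chosen with earlier results of these data known. All member probes are described. In each further list the most changed genes that passed, in each direction, could be named by rule. Promoter windows are from RefSeq. Alternatives were no filter, a filter on all 12 arrays, 1 probe a gene, the replicate number as a block, background subtracted with a floor of 16, only the groups compared, and leaving out each array. KRT17, TP63, AHSA1 and HSF2, among other listed genes, were not analysed here.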

Additional observations from a re-analysis of the deposited data

Results flagged for a closer look

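These results stand here because the difference with lapatinib was unlike between arrays labelled with and without a FAK inhibitor, by limma's interaction test with Benjamini-Hochberg adjustment. With Y15, the interaction was 0.77 for HSPH1 (adjusted p = 0.0125), 0.56 for HSPD1 on ILMN_2381397 (adjusted p = 0.0370) and 1.01 for HSP90AA1 on ILMN_1691097 (adjusted p = 0.0420), in log2 units. These 3 calls were lost with background subtracted and without single arrays, and the last value was 0.67 without untreated replicate 1. They were also lost with the replicate block, under which Y15 plus lapatinib rests on 1 array. With PF04554878 it was -3.18 for HSPA1A (adjusted p = 1.21e-08), -0.55 for HSPA8 on ILMN_2413084 (adjusted p = 0.00710), 1.90 for HSPH1 (adjusted p = 3.47e-08), 0.92 for BAG3 (adjusted p = 9.24e-05) and 0.71 for DNAJB1 (adjusted p = 0.00630). In the chaperonin it was 1.36, 1.15 and 1.01 on the HSPD1 probes ILMN_1784367, ILMN_1766713 and ILMN_2381397, and 1.14 and 1.26 on the HSPE1 probes ILMN_1803775 and ILMN_2092536. For HSP90AA1 on ILMN_1691097 it was 0.67 (adjusted p = 0.0411). This call and that of HSPE1 on ILMN_2092536 were lost with no filter, with background subtracted and without single arrays. Of all probes, 39.3% passed the interaction of PF04554878 and lapatinib, and 2.63% that of Y15 and lapatinib. Both tests share the lapatinib and untreated arrays. As arrays of the PF04554878 combination and of PF04554878 were alike, that interaction mostly repeats the lapatinib difference with its sign reversed.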

How the results depend on the processing

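Of 3640 differences of single member probes recomputed under an alternative, 3366 kept their direction and side of the threshold. A call was lost by 185 and gained by 44, in the same direction. Another 45 changed direction with no call in either fit, and 0 changed direction with a call in either. With 1 probe a gene, which leaves 10 member probes by construction, the count of member probes that passed went from 13 to 8 with PF04554878 and with lapatinib and from 11 to 7 with PF04554878 plus lapatinib, all against untreated, from 8 to 5 with PF04554878 plus lapatinib against Y15 plus lapatinib, and from 11 to 7 for the interaction of PF04554878 and lapatinib. With PF04554878 plus lapatinib against untreated it was also 7 with no filter and 7 with background subtracted. With background subtracted it was 2 rather than 6 with Y15 plus lapatinib against lapatinib, 1 rather than 3 with PF04554878 plus lapatinib against PF04554878, 5 rather than 8 between the combinations, and 0 rather than 3 for the interaction of Y15 and lapatinib, which was 1 with only the groups compared. The cause was not tested.

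Over all leave-one-out fits these counts ran from 0 to 1 for Y15 against untreated, from 6 to 10 for PF04554878 plus lapatinib against untreated, from 1 to 8 for Y15 plus lapatinib against lapatinib, from 1 to 3 for PF04554878 plus lapatinib against PF04554878 and from 0 to 4 for the interaction of Y15 and lapatinib.

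Replicate numbers showed no steady pairing of the arrays: deviations of same-numbered arrays correlated at -0.29 to 0.11 over 10 pairs of groups, 1 of them above 0.1. Of 10 arrays, 2 correlated best with their own number. The 2 deviations of a group mirror each other, so this count adds nothing to those correlations. With the replicate number as a block, 2 member probes passed with Y15 plus lapatinib against lapatinib and 0 for the interaction of Y15 and lapatinib, while the counts against untreated were 0 with Y15, 14 with PF04554878, 13 with lapatinib, 12 with Y15 plus lapatinib and 10 with PF04554878 plus lapatinib. The block also ended 14 calls of single member probes, among them that of HSPE1 on ILMN_2092536 with Y15 plus lapatinib against untreated (-0.65, adjusted p = 0.0749), which against Y15 was -0.85, and it moved HSPA1A between the combinations from -0.42 to -0.67.

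Counts over all probes moved most where few passed. With Y15 against untreated, 660 became 439 with the block, 372 with background subtracted, 48 with only the groups compared, 1600 without untreated replicate 2, and 149 and 100 without Y15 replicates 1 and 2. With Y15 plus lapatinib against lapatinib, 1845 became 814 with the block and 381 to 938 without 1 of the arrays compared, and with PF04554878 plus lapatinib against PF04554878, 1281 became 472 to 698. For the interaction of Y15 and lapatinib, 523 became 34 with the block, 187 with background subtracted, 298 with only the groups compared, and 44 to 1373 when 1 array was left out. Signal near the cutoff limits the dim probes, and 2 arrays a group limit all.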
